A study of Mus musculus with 8 samples.

Results

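A set of 40 genes of mitosis and the spindle, of the 23427 entries of the deposited table, was followed through 4 days of oligodendrocyte (OL) differentiation. They were chosen by name as known mitotic genes, with earlier results of these data known, and each of the 40 symbols matched an entry. The cells were primary oligodendrocyte precursor cells (OPCs) of wild-type (WT) C57BL/6J mice, immunopanned with an antibody against PDGFRα taken from P7 (postnatal day 7) pup cortex. Day 0 is the proliferating culture, and Day 1, Day 2 and Day 3 count from the withdrawal of PDGF-AA with T3 (40 ng/mL), a thyroid hormone, added, so that all groups share genotype and source and differ in time and medium. Each day had 2 replicates, described as independent experiments, for 8 mRNA libraries in all. No group was kept in growth factor to Day 1 or later, so time in culture and differentiation cannot be told apart. The labels and the methods describe the growth medium and the RNA kit differently.

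Mitosis is entered when cyclin B and the kinase Cdk1 become active. Microtubules and kinesin motors then build the spindle, kinetochores attach each chromosome to it, and the spindle checkpoint holds the cell until every chromosome is attached. The anaphase-promoting complex then marks cyclin B for destruction, the chromosomes separate, and the cell divides. Most mRNAs of this machinery are made only from late S phase to mitosis. They are repressed in resting cells by the DREAM complex, whose MuvB core binds a promoter element called CHR (cell cycle genes homology region), and are activated in cycling cells by B-Myb and FoxM1 on the same core. PDGF-AA is the mitogen that keeps OPCs dividing, and OPCs leave the cell cycle as they become OLs. In bulk RNA, fewer dividing cells and less of an mRNA per cell cannot be told apart.

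The OPC identity of the cultures was read from marker genes. *Pdgfra*, the PDGF receptor of OPCs, had an FPKM of 490.3 and 395.9 (replicates 1 and 2, in this order throughout) on Day 0 and had dropped to 29.2 and 6.53 by Day 3. OL markers such as *Mag*, a myelin adhesion protein, went from 8.33 and 10.4 to 1114 and 1736 over the same days, and 9 of the 9 OL markers tested rose from Day 0 to Day 3, against 12% of all genes called higher (limma, described with the first step). Of 10 OPC markers 8 fell and 0 rose over these days, against 26.3% of all genes called lower. By Day 1, 6 of them fell and 3 rose, against 7.56% and 5.04% of all genes. The OPC marker sum on Day 3 was still 52.8% and 39.5% of that on Day 0. Beside *Pdgfra*, the 10 are *Cspg4*, *Cacng4*, *Olig1*, *Olig2*, *Sox10*, *Gpr17*, *Ptprz1*, *Lhfpl3* and *Neu4*. The paper also uses Olig2 for cells of the OL lineage in general, so this sum does not measure how much OPC identity was left. Astrocyte markers were also present, and their summed FPKM was higher in replicate 2 on each day, by 2.88 to 6.26 times. Of 10 microglia markers 8 to 10 were listed at 0 in each library (summed FPKM 0 to 2.51, *C1qa* at 0 in all), and of 8 endothelial markers 5 to 7 (summed FPKM 0.574 to 3.31, *Cdh5* at 0 in all). The sum of 10 mural and fibroblast markers was 0 to 1.76 in replicate 1 and 5.54 to 13.2 in replicate 2. That of 10 neuron markers went from 71.2 and 50.3 on Day 0 to 234 and 120 by Day 3, but only 1 of the 10 had a Day 0 mean of 10 FPKM or more. Of the 6 neuron markers tested, 2 fell and 1 rose from Day 0 to Day 3, with a median log2 change of -0.91. Depth, read from the steps between low FPKM values, was 950000 to 1520000 fragments per library, so that a member rested on a median of 260 and 162 fragments on Day 0 and of 14 and 3 on Day 1. These counts, the floors and the intervals cover counting error only.

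The promoters of the members are shown first because the CHR is an element bound by the MuvB core of the DREAM complex. The RefSeq table (GRCm38.p6) gave windows from 250 bases before to 50 bases after the start for 35 of the 40 members. No window was matched for *Aurkb*, *Ccna2*, *Incenp*, *Kif20a* and *Tpx2*. The CHR was searched on both strands as TTTGAA or TTCGAA, matches of which cannot overlap each other and share at most 1 base with the CCAAT letters below. It was found in the windows of 27 of the 35 members (77.1%), of 7 of 35 DNA replication genes (20%) and of 21.7% of all 27025 genes with a window. Within 100 bases before to 50 bases after the start, a range chosen after the positions were seen, the shares were 74.3%, 11.4% and 9.87%. A match thus lay close to the start in 26 members, as the plot of CHR positions shows. The following 30-base stretches were picked because they cover the main roles. For cyclin destruction these are an enzyme and the activator of the anaphase-promoting complex. The others are the kinases and cyclin of mitotic entry, a topoisomerase, a checkpoint kinase and a cytokinesis motor. The stretches are printed 5′ to 3′ on the strand of the gene. Capitals mark the CHR, which reads TTCAAA where TTTGAA lies on the opposite strand.
*Ube2c*, chr2:164769888-164769917, plus strand: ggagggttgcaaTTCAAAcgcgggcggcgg
*Cdc20*, chr4:118437344-118437373, minus strand: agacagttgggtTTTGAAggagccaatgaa
*Cdk1*, chr10:69352910-69352939, minus strand: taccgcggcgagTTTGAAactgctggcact
*Ccnb2*, chr9:70421533-70421562, minus strand: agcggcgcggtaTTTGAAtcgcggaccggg
*Plk1*, chr7:122159453-122159482, plus strand: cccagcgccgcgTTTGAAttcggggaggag
*Top2a*, chr11:99024195-99024224, minus strand: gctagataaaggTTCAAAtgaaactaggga
*Bub1*, chr2:127831828-127831857, minus strand: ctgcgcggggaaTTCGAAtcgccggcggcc
*Kif23*, chr9:61946780-61946809, minus strand: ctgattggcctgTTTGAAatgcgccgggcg
The matches begin 29 bases before the RefSeq start in *Ube2c*, 18 before it in *Cdc20*, 15 before it in *Cdk1* and 23 before it in *Top2a*, and 3 to 31 bases after it in *Kif23*, *Ccnb2*, *Bub1* and *Plk1*.

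**Figure D1:**
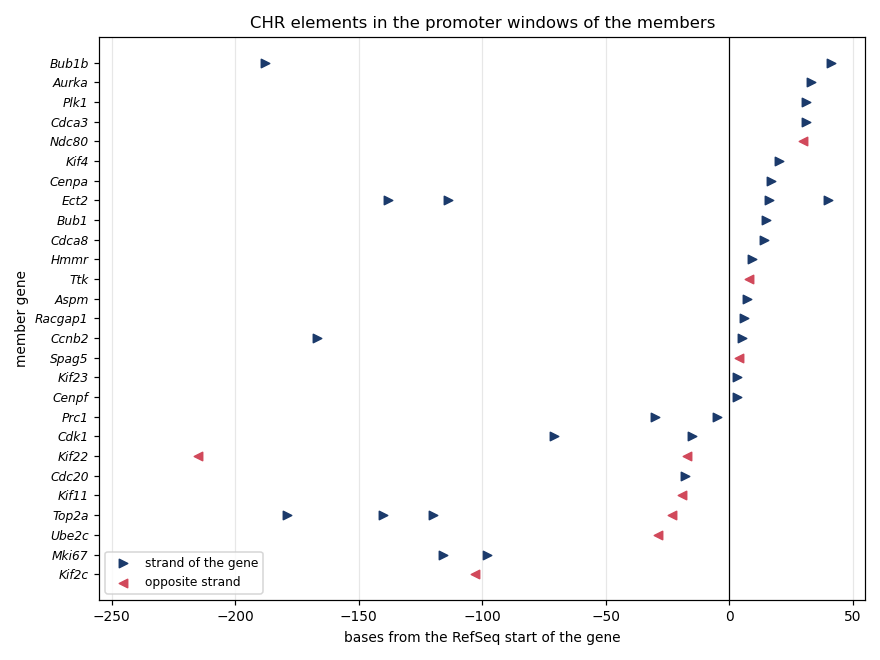
Position of each CHR match (TTTGAA or TTCGAA) in bases from the RefSeq start (x axis) in the promoter windows of the 27 members that hold one (y axis), with arrowheads for the strand. Most members have a match close to the start, and several have a further match upstream. *Ect2* and *Prc1* have overlapping windows from different starts, so each of their matches is drawn once per start.

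CCAAT, the letters bound by the factor NF-Y, stood on either strand in the windows of 27 of 35 members (77.1%), of 62.9% of the DNA replication genes and of 41.1% of all genes. Both elements were in the windows of 25 members (71.4%), against 8.61% of all genes, and CCAAT occurred at least 2 times in those of 20 members (57.1%, against 13.3%). The E2F letters TTTCCCGC, searched on both strands and added after the first results, were in 0 of the 35 member windows, in 17.1% of the DNA replication genes and in 1.24% of all genes. The 8 members whose window holds no CHR letters were *Birc5*, *Ccnb1*, *Cenpe*, *Mad2l1*, *Melk*, *Nuf2*, *Nusap1* and *Pttg1*. Members with and without the CHR letters changed by a median of -4.11 (n = 27) and -4.07 (n = 8) from Day 0 to Day 1 on the log2 scale described next. These matches are descriptions of letters in a window, not binding sites.

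To ask how far the set falls, the FPKM of the members was summed in each library. The sum was 2996 and 2299 on Day 0, then 181 and 48.8 (Day 1), 52.5 and 35.0 (Day 2), and lastly 92.1 and 90.4 (Day 3). Both Day 1 libraries lay far below both Day 0 libraries, and replicate 2 was the lower of the pair on each day. What was left on Day 1 was 6.05% of the Day 0 sum in replicate 1 and 2.12% in replicate 2. A day later it was 1.75% and 1.52%, and by Day 3 it was 3.07% and 3.93%. The sums rested on 16095 and 9916 fragments on Day 0, and on 739 and 189 fragments on Day 1. The fall of the sum was therefore nearly complete after 1 day, and the lowest level was that of Day 2.

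**Figure D2:**
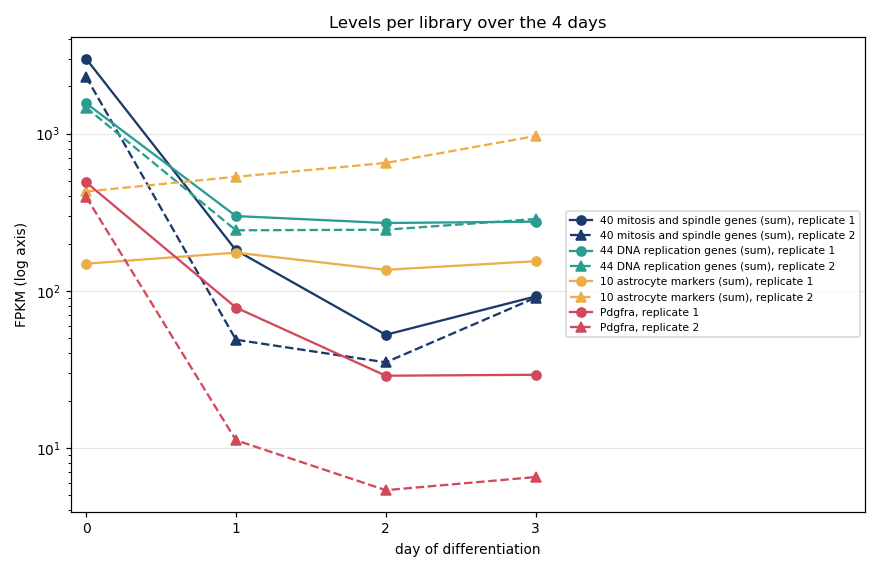
FPKM on a log axis (y) against the day of differentiation (x) in each replicate, for the sums of the 40 mitosis and spindle genes, of 44 DNA replication genes and of 10 astrocyte markers, and for *Pdgfra*. Lines join the libraries of the same replicate number (solid with circles, replicate 1; dashed with triangles, replicate 2). The mitotic sum drops below the replication sum by Day 1, and replicate 2 is the lower on Day 1 for the mitotic genes (48.8 against 181) and for *Pdgfra* (11.2 against 78.2).

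The steps between days were tested by limma, with Benjamini-Hochberg adjustment, on the log2(FPKM + 1) scale. It was fitted to 12208 genes, those that reached an FPKM of 1 in 2 libraries or more. On this scale a change understates that of a gene that ends near 0. From Day 0 to Day 1, 39 of the 40 members fell (adjusted p under 0.05), against 7.56% of all genes tested, and 0 rose, against 5.04%. Their log2 changes ran from -5.34 to -3.46, with adjusted p from 0.000748 to 0.00854. The median change of the 40 was -4.19, against -0.07 over all genes, and 39 members were among the 100 genes with the lowest changes. As the members were chosen with earlier results of these data known, these shares and ranks describe the set and do not test it. In 40 of 40 members both Day 1 libraries lay below both Day 0 libraries. Such counts of libraries that do not overlap were made for the members only, so no share of all genes stands beside them. All 40 passed the filter, and 8 of them passed it only through the Day 0 libraries, so that for these 8 the filter itself favoured a difference.

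**Figure D3:**
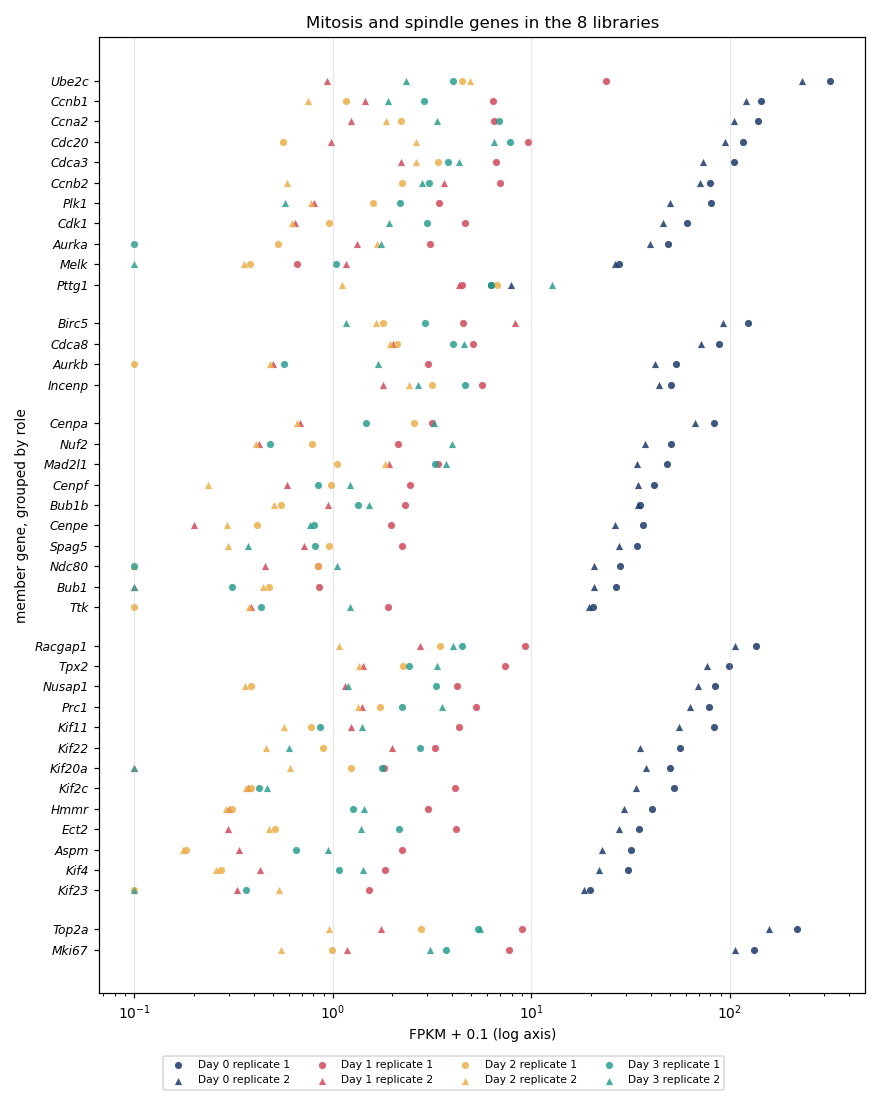
FPKM + 0.1 on a log axis (x) of each of the 40 members (y, grouped by role and ordered by the Day 0 mean) in the 8 libraries, with a colour per day and a symbol per replicate. Day 0 stands apart from the later days in every row but that of *Pttg1*, and on Day 1 most circles (replicate 1) lie to the right of the triangles (replicate 2).

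The kinases, cyclins and factors of the anaphase-promoting complex held 11 members, of which 10 fell from Day 0 to Day 1 (median change of the 11, -4.20). *Ube2c*, the ubiquitin-conjugating enzyme of that complex, was the highest member on Day 0 (chr2:164769898-164778822, GRCm38, GENCODE M21). Its FPKM was 321 and 231 on Day 0, then 23.6 and 0.840 (Day 1), 4.41 and 4.84 (Day 2), and lastly 3.94 and 2.24 (Day 3). The Day 1 libraries lay far apart, and the lower value rested on 1 fragment, so that the 0.363% left in replicate 2 has an exact 95% counting interval of 0.00919% to 2.05%. The change to Day 1 was -5.34 (SE 0.96, adjusted p = 0.00854), the largest among the members in size and in SE. Without the first Day 0 library it was -5.11 with an adjusted p of 0.0672.

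*Ccnb1*, cyclin B1 (chr13:100778650-100786570), had an FPKM of 143 and 120 on Day 0, then 6.34 and 1.35 (Day 1), 1.06 and 0.649 (Day 2), and lastly 2.77 and 1.80 (Day 3). Its partner kinase *Cdk1* (chr10:69335146-69352938) stood at 60.6 and 46.2, then at 4.56 and 0.547, at 0.861 and 0.525, and at 2.88 and 1.82. Replicate 1 was the higher on each day for both genes. *Ccnb1* fell by 4.99 on the log2 scale by Day 1 (SE 0.48, adjusted p = 0.000933) and *Cdk1* fell by 4.20 (SE 0.54, adjusted p = 0.00192). *Ccna2*, cyclin A2, which acts in S phase and at mitotic entry, had 140 and 105 on Day 0, then 6.40 and 1.14 (Day 1), 2.10 and 1.77 (Day 2), and lastly 6.81 and 3.25 (Day 3). *Cdc20*, the activator of the anaphase-promoting complex, had 117 and 95.02, then 9.60 and 0.877, 0.460 and 2.53, and 7.71 and 6.44. Its Day 3 libraries both lay above its Day 2 libraries, but the change between these days was not called (1.83, SE 0.72, adjusted p = 0.301). *Ccnb2*, the second B-type cyclin, was among the 3 members with the most left on Day 1, with 79.5 and 70.9 on Day 0 and 6.88 and 3.55 on Day 1, then 2.13 and 0.487, and 2.97 and 2.71. *Cdca3*, a trigger of Wee1 destruction, *Plk1* and *Aurka*, kinases of the centrosome and spindle, and *Melk*, a kinase, also fell, by 3.92 to 4.56. *Aurka* was not called with a pseudocount of 0.1 (adjusted p = 0.0635).

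*Pttg1*, securin, the inhibitor of the protease that cuts cohesin, was the exception (chr11:43420250-43426251). It was also the lowest member on Day 0, with an FPKM of 6.17 and 7.83, against 4.41 and 4.23 (Day 1), 6.66 and 1.01 (Day 2), and lastly 6.19 and 12.7 (Day 3). The libraries of Day 0 lay above those of Day 1 and overlapped those of Day 3. These values rested on 1 to 9 fragments in any library, and the change to Day 1 was not called (-0.58, SE 0.58, adjusted p = 0.584). The other 39 members had Day 0 means from 19.1 to 276, so *Pttg1* was not measured as precisely as they were.

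The chromosomal passenger complex, which corrects attachments and guides cytokinesis, held 4 members, and 4 fell by Day 1. *Birc5*, survivin, its targeting subunit (chr11:117849251-117855743), had an FPKM of 123 and 92.5 on Day 0, then 4.41 and 8.17 (Day 1), 1.69 and 1.55 (Day 2), and lastly 2.83 and 1.07 (Day 3). It was, with *Melk*, 1 of 2 members that were higher in replicate 2 on Day 1, and the fall to Day 1 was -3.94 (SE 0.37, adjusted p = 0.000884). *Cdca8*, borealin, had 87.8 and 71.7, then 5.01 and 1.92, 2.02 and 1.85, and 3.95 and 4.49. *Incenp*, the scaffold of the complex, kept the most of Day 0 by the mean of both replicates among the members at 10 FPKM or more, with 11.01% and 3.86%. *Ect2* kept more in replicate 1, and *Birc5* kept the most in replicate 2. *Incenp* had 50.7 and 44.1 on Day 0, then 5.58 and 1.70 (Day 1), 3.06 and 2.33 (Day 2), and lastly 4.56 and 2.60 (Day 3). The change of *Incenp* to Day 1 was -3.52 (SE 0.42, adjusted p = 0.00156). The catalytic subunit *Aurkb* fell by 4.37 (SE 0.52).

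Kinetochore and checkpoint genes held 10 members, and 10 fell by Day 1, with a median change of -4.07. *Cenpa*, the histone H3 variant that marks centromeres, was the highest of them, with an FPKM of 83.4 and 66.4 on Day 0, then 3.05 and 0.585 (Day 1), 2.46 and 0.562 (Day 2), and lastly 1.37 and 3.12 (Day 3). *Nuf2*, a subunit of the NDC80 complex that binds microtubules, had 50.4 and 37.3, then 2.03 and 0.325, 0.683 and 0.312, and 0.381 and 3.91. *Mad2l1*, the checkpoint protein that inhibits *Cdc20*, had 48.4 and 34.0, then 3.31 and 1.81, 0.952 and 1.74, and 3.19 and 3.63. The replicates of *Cenpa* and *Nuf2* lay several-fold apart on Day 1, and those of *Mad2l1* lay closer together on Day 1 and each later day. The lower values rest on few fragments. By the mean of both replicates least was left of *Bub1*, a checkpoint kinase, although *Melk* and *Ndc80* kept less in replicate 1. *Bub1* had 26.6 and 20.7 on Day 0, then 0.752 and 0 (Day 1), 0.379 and 0.346 (Day 2), and lastly 0.211 and 0 (Day 3). The Day 1 values of *Bub1* did not fall on whole fragments and were estimated from its longest transcript as 3 and 0 fragments. With that length, the exact 95% counting interval of the count of 0 reaches 4.2% of Day 0 in replicate 2. *Ndc80*, the partner of *Nuf2*, was similar, with 27.8 and 20.7 on Day 0, then 0.741 and 0.355 (Day 1), 0.746 and 0 (Day 2), and lastly 0 and 0.948 (Day 3). *Cenpe* and *Cenpf*, kinetochore proteins of the outer layer, *Bub1b* and *Ttk*, kinases of the checkpoint, and *Spag5*, astrin, fell by 3.46 to 4.17.

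Motors, spindle assembly and cytokinesis genes were the largest group, and 13 of 13 fell by Day 1 (median -4.08). *Racgap1*, a centralspindlin subunit that sets the division plane, had an FPKM of 136 and 107 on Day 0, then 9.17 and 2.67 (Day 1), 3.36 and 0.980 (Day 2), and lastly 4.38 and 3.92 (Day 3). *Tpx2*, the spindle assembly factor that activates *Aurka*, had 98.9 and 76.6, then 7.32 and 1.31, 2.16 and 1.26, and 2.32 and 3.26. *Nusap1*, which bundles spindle microtubules, had 84.5 and 69.5, then 4.13 and 1.06, 0.287 and 0.263, and 3.20 and 1.09. On Day 1 these 3 genes were lower in replicate 2 and on Day 2 lower again in both replicates, *Tpx2* by a small margin in replicate 2. Of *Kif20a*, a cytokinesis kinesin, 50.2 and 38.0 on Day 0 became 1.72 and 0 (Day 1), 1.14 and 0.509 (Day 2), and lastly 1.67 and 0 (Day 3). With its fragments also estimated from the longest transcript, the exact 95% counting interval of the Day 1 count of 0 reaches 2.095% of Day 0 in replicate 2. The kinesins *Kif11*, *Kif22*, *Kif2c*, *Kif4* and *Kif23*, the midzone bundler *Prc1*, the RhoA activator *Ect2*, and *Hmmr* and *Aspm*, proteins of the spindle poles, fell by 3.54 to 4.36. Of these, *Ect2* had an adjusted p of 0.0509 without the first Day 0 library.

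The chromosome group held *Top2a* and *Mki67*, and 2 of 2 fell. *Top2a*, the topoisomerase that untangles sister chromatids (chr11:98992943-99024189), had an FPKM of 217 and 157 on Day 0, then 8.91 and 1.65 (Day 1), 2.67 and 0.864 (Day 2), and lastly 5.27 and 5.40 (Day 3). *Mki67*, the proliferation marker that coats mitotic chromosomes (chr7:135689784-135716361), had 133 and 107, then 7.61 and 1.09, 0.896 and 0.447, and 3.64 and 3.004. For both genes all 6 later libraries lay under every Day 0 library, and the Day 2 mean was lowest. The Day 1 changes were -5.18 (SE 0.57, adjusted p = 0.00129) for *Top2a* and -4.83 (SE 0.56, adjusted p = 0.00144) for *Mki67*, a long mRNA that still gave 94 and 14 fragments on Day 1.

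To see what is left on Day 1 gene by gene, each member was expressed as a percent of its Day 0 value in the same replicate number. In replicate 1 the 39 members at 10 FPKM or more on Day 0 kept 2.03% to 11.7%, with a median of 5.72%. In replicate 2 they kept 0% to 8.84%, with a median of 1.43%. The mean of these medians was 3.58% ± 3.03 (SD, n = 2). Under 10% was left of 37 of the 40 members in replicate 1 (all but *Ect2*, *Incenp* and *Pttg1*) and of 39 in replicate 2 (all but *Pttg1*). In replicate 2, 20 members stood at or under the floor of 3 fragments on Day 1, against 3 members in replicate 1, so single percentages in replicate 2 are imprecise and the sums are the firmer measure.

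**Figure D4:**
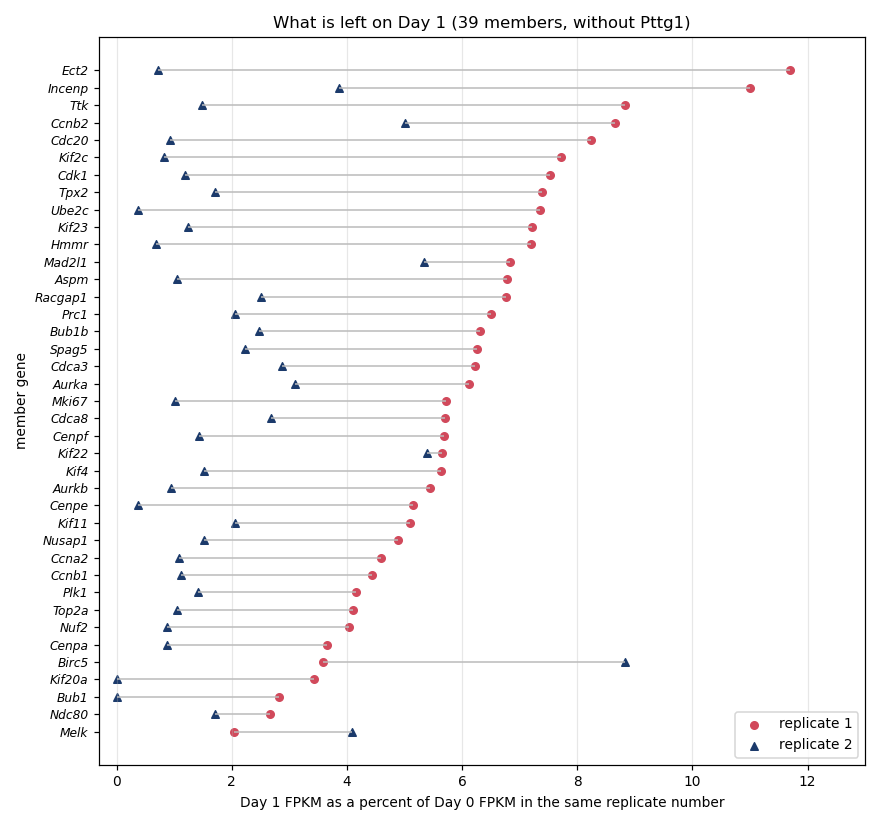
Day 1 FPKM as a percent of the Day 0 FPKM of the same replicate number (x) for 39 members (y, ordered by replicate 1; *Pttg1*, at 71.5% and 54.0%, is left off the axis). Circles are replicate 1, triangles replicate 2, and grey lines join them. Triangles lie to the left of the circles in all rows but those of *Birc5* and *Melk*.

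After Day 1 no change of a member was called. From Day 1 to Day 2 the mean FPKM of 40 of 40 members went down, and 38 had negative log2 changes. In replicate 1, 2 members were higher on Day 2 than on Day 1, and in replicate 2, 11 were. In 14 members both Day 2 libraries lay below both Day 1 libraries, a count not made over all genes. By limma 0 of 40 members were called in this step, against 1.73% of all genes called lower and 3.89% in either direction, and 8 members (20%) had an unadjusted p under 0.05, against 21.8% of all genes. The lowest adjusted p was 0.0745, for *Birc5* (-1.43, SE 0.37). The median change of the members was -0.67, against -0.19 over all genes, and with a pseudocount of 0.1 in place of 1 it was -1.25. Without the first Day 1 library 22 members were lower on Day 2 and the median was -0.03, and without the second Day 1 library all 40 were lower, the median was -1.27, and 3 members were called. Leaving out either Day 3 library, or taking the replicate number as a block, gave 1 member called. The size of this step thus differed with the Day 1 library used.

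From Day 2 to Day 3, 34 of the 40 members had positive log2 changes. The median was 0.60, against -0.02 over all genes, and was 1.11 with a pseudocount of 0.1. In 24 members both Day 3 libraries lay above both Day 2 libraries, a count not made over all genes. By limma 0 members were called, against 0.295% of all genes called in either direction (0.246% higher and 0.0491% lower), and 6 (15%) had an unadjusted p under 0.05, a share close to the 14.5% of all genes. On Day 3 10 and 14 members stood at or under 3 fragments, against 20 and 26 on Day 2.

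Over the whole course, from Day 0 to Day 3, 39 of 40 members fell, against 26.3% of all genes called lower, and 0 rose, against 12% called higher, with a median change of -4.32 against -0.31. The exception was *Pttg1* again (0.32, SE 0.58, adjusted p = 0.691), and without the second Day 3 library its change was -0.14. In 39 of 40 members both Day 3 libraries lay below both Day 0 libraries, a count not made over all genes. In the other 39 members the change of the first step was, at the median, 96.7% of that of the whole course on the log2 scale.

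**Figure D5:**
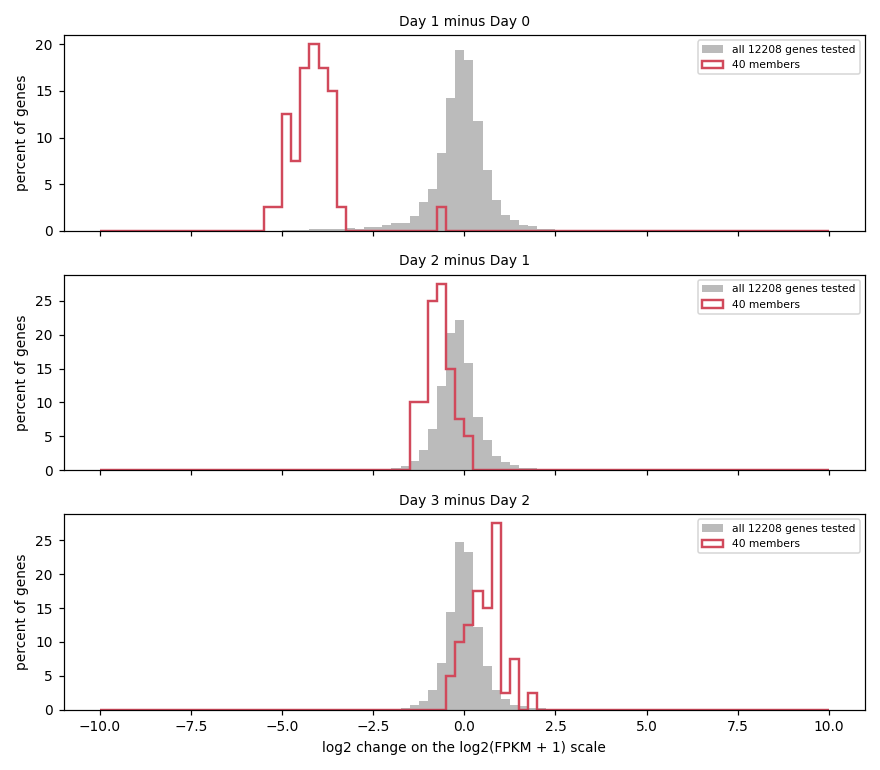
Share of genes (y, percent) by log2 change on the log2(FPKM + 1) scale (x) in each of the 3 steps, for all genes tested (grey bars) and for the 40 members (red outline). The members stand apart to the left in the first step (median -4.19), slightly to the left in the second (-0.67) and slightly to the right in the third (0.60).

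The first and second steps were compared as the difference of both changes. On the log2(FPKM + 1) scale a member near 0 on Day 1 has little room to fall further. For such members the sign follows from the large first step, so the contrast is no separate test of which step was larger. All 40 differences were negative, with a median of -3.39 against 0.09 over all genes, and 39 members had an unadjusted p under 0.05, against 15.7% of all genes. After adjustment 3 members were called, *Bub1* (-4.25, SE 0.64), *Cdca8* (-3.74, SE 0.59) and *Cdca3* (-3.88, SE 0.70), against 1.05% of all genes in either direction. With the replicate number as a block 24 members were called. Without the first Day 1 library 20 members were called, without the first Day 3 library 5, and without either library of Day 0 or Day 2, or without the second Day 1 library, 0 were.

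The sums of the replicates stood farthest apart on Day 1. Replicate 1 was the higher in 39 members on Day 0, in 38 on Day 1, in 33 the day after and in 20 at the end. Such counts of direction, here and over the 4 days below, were not made over all genes. Members of the same libraries are not independent of each other. Its sum was 1.30 times that of replicate 2 on Day 0, 3.71 times on Day 1 and 1.02 times on Day 3. Over the 4 days 39 members were lower in replicate 2 (median -0.49, against -0.05 over all genes), yet by limma 0 were called, against 1.05% of all genes in either direction and 0.68% called higher, with 13 at an unadjusted p under 0.05, against 11.9% of all genes. The difference of Day 1 set against that of the other days, a contrast chosen after the values were seen, was called for 0 members and 0% of all genes. In this contrast 17 members had an unadjusted p under 0.05, against 5.14% of all genes, and *Ube2c* had the largest difference (-3.42, SE 0.39, adjusted p = 0.173). *Pdgfra* had 78.2 and 11.2 FPKM on Day 1, 6 of the 9 astrocyte markers tested were higher in replicate 2 over all days (*Gfap*, 3.55, SE 0.12, adjusted p = 1.03e-05), and the astrocyte sum was 175 and 532 on Day 1, when that of the mural and fibroblast markers was 0 and 13.2. Their part in the replicate difference of the members was not tested.

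Other genes of cell division were counted from lists chosen by function. Over all genes tested, 7.56% were called lower and 5.04% higher from Day 0 to Day 1, the shares to set beside each count of these lists. Among 33 other kinetochore and centromere genes 27 fell from Day 0 to Day 1 (median -2.80), and the median of what was left was 9.04% and 5.87%. *Bub3*, a checkpoint protein with further roles, was the most abundant of them and fell by 1.09 (SE 0.15, adjusted p = 0.00233), with 85.02 and 77.7 FPKM on Day 0 and 38.9 and 36.5 on Day 1. Of 13 genes of the switch into mitosis, 11 fell (median -2.61). The phosphatase *Cdc25b*, an activator of Cdk1, fell by 2.61 (SE 0.42), while *Ensa* and *Arpp19*, inhibitors of the phosphatase PP2A, were not called (-0.38, SE 0.17, and -0.09, SE 0.14). Of 36 other spindle and cytokinesis genes 26 fell and 1 rose (median -2.49). *Stmn1*, which destabilises microtubules, fell by 1.95 (SE 0.24), and the gene that rose was *Kif5b*, a cargo motor (0.65, SE 0.13, adjusted p = 0.0149). Condensin and cohesin genes split, with 13 of 21 lower (median -1.30). The condensin subunit *Ncapd2* fell by 3.11 (SE 0.37) and the cohesin subunit *Rad21* by 1.30 (SE 0.14), while the cohesin regulators *Stag1*, *Stag2*, *Nipbl*, *Pds5a* and *Pds5b* were not called.

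The subunits of the anaphase-promoting complex were counted apart from *Ube2c* and *Cdc20*. Of 17 core subunits and related genes 3 fell by Day 1 (*Anapc5*, *Ube2s* and *Fbxo5*) and 0 rose, against 7.56% and 5.04% of all genes. The median of what was left was 72.7% and 74.0%. *Ube2s*, which extends the ubiquitin chains that *Ube2c* starts, had 378 and 304 FPKM on Day 0 and 159 and 180 on Day 1 (adjusted p = 0.00827). *Anapc13* had 92.7 and 97.9 on Day 0 and 71.9 and 88.2 on Day 1 and was not called (-0.26, SE 0.18). Over the whole course 9 of the 17 fell and 1 rose, against 26.3% and 12% of all genes. No test of these genes against *Ube2c* and *Cdc20* was run.

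Of the DREAM and MuvB regulators, 5 of 15 fell by Day 1 and 0 rose (median -0.60), against 7.56% and 5.04% of all genes. *Foxm1*, an activator of mitotic genes, had 58.2 and 44.1 FPKM on Day 0, then 3.36 and 1.25 (Day 1), 1.505 and 0.688 (Day 2), and lastly 2.10 and 1.20 (Day 3) (first step -4.04, SE 0.40, adjusted p = 0.000996). *Mybl2*, which encodes B-Myb, had 15.1 and 11.9, then 1.54 and 0.63 on Day 1 (-2.82, SE 0.35, adjusted p = 0.00165). The pocket protein gene *Rbl1* (p107) fell by 2.75 (SE 0.31), *Lin54*, the MuvB subunit that contacts the CHR, fell by 1.73 (SE 0.38, adjusted p = 0.021), and *Tfdp1* by 0.78 (SE 0.14). *Rbl2* (p130), the pocket protein of DREAM in resting cells, had 12.99 and 14.2 on Day 0 and 13.6 and 12.5 on Day 1 (-0.06, SE 0.20, adjusted p = 0.896). *E2f4*, *Lin37*, *Lin52*, *Lin9*, *Rbbp4*, *E2f5*, *Tfdp2*, *Mybl1* and the DREAM kinase *Dyrk1a* were not called, with changes from -0.65 to 0.23 apart from *Lin9* (adjusted p = 0.231). *Mybl1* was the gene of this list called from Day 1 to Day 2 (-1.72, SE 0.36, adjusted p = 0.0405).

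DNA replication and nucleotide synthesis genes also fell by Day 1, in 41 of 44 cases against 7.56% of all genes, with a median change of -2.35 and a median of 17.5% and 13.9% left. *Pcna*, the sliding clamp, had 182 and 192 FPKM on Day 0 and 48.5 and 39.7 on Day 1 (-2.07, SE 0.16). *Rrm1*, a subunit of ribonucleotide reductase, had 110 and 91.5 and then 14.3 and 10.4 (-2.95, SE 0.20). In these lists, chosen with earlier results known, the median of the mitotic members was lower than that of the replication genes, and no test of that difference was run.

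Of the 40 members, 11 share exon bases with another annotated gene, among them *Ube2c* with *Tnnc2*, *Ccna2* with *Exosc9*, *Kif20a* with *Cdc23* and *Prc1* with *Rccd1*. Whether fragments were counted by strand is not given in the sources used here, so the values of these members are uncertain to that extent. The 29 members without shared bases include *Ccnb1*, *Cdk1*, *Birc5*, *Mki67* and *Racgap1*.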

How the data were processed

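The authors deposited FPKM for 8 libraries made with a stranded mRNA kit and processed in OmicSoft ArrayStudio. The labels name mm10. Aligner, gene model and use of strand are not given in the sources used here. The members and lists were chosen with earlier results of these data known.

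Days and replicate numbers came from the labels. In R 4.3.3, limma 3.58.1 (lmFit, eBayes with trend) was fitted to log2(FPKM + 1) with day as a factor over 12208 genes, and adjusted p under 0.05 was called. DESeq2, named in the methods, needs counts and was not used. Depth and fragments per member came from FPKM steps and GENCODE M21 lengths. 28 members fell within 0.1 of whole fragments, and those of the other 12 are estimates from the longest transcript. All members are named. Library values are given for the highest of each role, for *Mki67*, *Top2a*, *Cdk1*, *Ccnb1* and *Ube2c*, and for the 3 with most and least left on Day 1. Examples from other lists are their most abundant genes and any DREAM or MuvB regulator; others named were chosen after their values were seen. Replicate differences correlated between each pair of days (r of 0.16 to 0.29 across 12208 genes, which are not independent). The numbers of the labels were therefore taken to pair the libraries in the percentages left and the replicate comparisons. The main limma model of the days had no replicate block and so did not use this pairing. Alternatives were another pseudocount, filters, scalings, no trend, a replicate block, fewer days and each library left out. The model was tested on simulated data. The rest was computed in Python 3.11.15 (pandas 2.3.3, numpy 2.4.6) and drawn with matplotlib 3.10.9.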

Additional observations from a re-analysis of the deposited data

How the results depend on the processing

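The first step called 39 members, and 35 to 39 with a library left out or 38 to 39 under the other alternatives. The whole course called 39, and 37 to 39 with a library left out. The calls lost in the first step were *Aurka* with a pseudocount of 0.1 (adjusted p = 0.0635), and *Ube2c* and *Ect2* without the first Day 0 library, when 38 members passed the filter. What was left on Day 1, 3.58%, was 1.43% to 5.72% with a library left out and 3.58% to 3.93% under other scalings or the Day 0 mean. The step from Day 1 to Day 2, with 0 members called, had 0 to 3 with a library left out and 1 with the replicate block. The difference between both steps, 3 members, became 0 with a pseudocount of 0.1 or no filter, 10 with quantile normalization, 1 without a trend, 5 with only the days compared, 24 with the replicate block, and 0 to 20 with a library left out. For Day 1 against the other days, 0 members became 1 without either Day 3 library. *Pttg1* over the whole course (0.32) was -0.14 to 0.78 with a library left out, and reversed without Day 3 replicate 2. The causes were not tested. The replicate block changed no other call of a member in the 4 comparisons of days. It moved the members at an unadjusted p under 0.05 in the last step from 6 to 12, and the calls over all genes from 211 lower and 264 higher to 436 and 367 in the middle step and from 6 and 30 to 44 and 119 in the last. Median ratio scaling moved the median of all genes from -0.31 to -0.04 over the whole course, and the members' median from -4.32 to -4.06. It changed the calls over all genes from 3207 lower and 1460 higher to 2043 and 2138. With 2 libraries a day, and 20 or more members at or under 3 fragments in 3 of the 8 libraries, levels after Day 0 are limited by depth.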

Other observations

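Genes that control the entry into the cycle were counted as a list of their own. Of 18 G1 cyclins, kinases and inhibitors tested, 5 fell and 1 rose from Day 0 to Day 1, against 7.56% and 5.04% of all genes, and 10 fell and 0 rose over the whole course, against 26.3% and 12%. *Ccnd1*, cyclin D1, the mitogen sensor of G1, had 124 and 158 FPKM on Day 0 and 9.24 and 3.30 on Day 1 (-4.41, SE 0.38, adjusted p = 0.000761). Its partner *Cdk4* had 382 and 425 on Day 0 and 340 and 319 on Day 1 and was not called (-0.29, SE 0.16). *Cdkn1b* (p27), an inhibitor linked to cell cycle exit, had 44.2 and 49.8 and then 50.2 and 37.1 (-0.12, SE 0.20), and the gene that rose was the inhibitor *Cdkn1c* (p57), at 5.82 and 4.28 on Day 0 and 14.3 and 26.1 on Day 1 (1.76, SE 0.36, adjusted p = 0.0163).

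Of the 18 genes, 1 was lower and 2 were higher in replicate 2 over all 4 days, and these genes were named after their values were seen. *Cdkn2a* (p16 and p19ARF) had 74.6, 50.6, 30.7 and 31.0 FPKM in replicate 1 on Day 0 to Day 3, and 19.3, 7.58, 0.808 and 1.12 in replicate 2 (-3.13 for replicate 2 against replicate 1, SE 0.35, adjusted p = 0.00585). *Cdkn1a* (p21) went the other way, with 2.05, 1.71, 4.73 and 5.76 in replicate 1 and 51.6, 9.42, 22.02 and 74.9 in replicate 2 (2.89, SE 0.35, adjusted p = 0.00866). The D-type cyclin *Ccnd2* was also higher in replicate 2 (1.99, SE 0.27, adjusted p = 0.0127). Of all genes tested, 1.05% were called in this comparison. No difference on a single day could be tested, with 1 library per day and replicate number.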
